A study of Rattus norvegicus with 4 samples.

Results

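The 71 rat genes described here are named for proteins of the mitochondrial ribosome, although the product of 1 of them, Mrps36, is not known as a part of that ribosome in mammals. They are the rows of a table of 13554 genes whose symbol is Mrpl or Mrps followed by a number and at most 1 lower-case letter, a choice that used no measured value. Of the 71, 43 carry a symbol of the large subunit (Mrpl) and 28 a symbol of the small subunit (Mrps). The table holds RNA sequencing counts of normal articular cartilage, the lining of the joint surface, and of xiphoid cartilage, the soft end of the breastbone. Both were taken from Sprague-Dawley rats of 8 to 10 weeks, with 2 libraries per tissue, no treatment and no genetic change named. The labels give neither the joint, the sex, nor the animals or pools behind a library, so p-values measure the spread between these libraries, which may be technical.

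Mitochondria keep a small genome of their own and translate its messages, all of which in mammals encode subunits of the respiratory chain and of ATP synthase, on a dedicated ribosome. The RNAs of that ribosome come from mitochondrial DNA, while its proteins are encoded in the nucleus, made in the cytosol and imported. Some of these proteins descend from those of bacterial ribosomes and the others were added during the evolution of mitochondria. Chondrocytes live with little oxygen and draw much of their ATP from glycolysis, and the demand for mitochondrial translation differs widely between tissues.

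The libraries held 7350456 to 8434098 counts in genes with a name. Chondrocyte markers were abundant in all 4 libraries, at a sum of 110500 and 131300 CPM (counts scaled to a common library size after TMM normalization) in articular and 32930 and 35430 CPM in xiphoid cartilage. Of 11 such genes, 6 were higher in articular and 2, Cnmd and Comp, in xiphoid cartilage. Col2a1, at 85600 and 103000 against 14800 and 16300 CPM, made up most of the articular sum. Markers of other cells differed between the tissues. Skeletal muscle markers summed to 237 and 305.2 CPM in articular against 9859 and 9917 CPM in xiphoid cartilage. In this list 12 of 13 matched genes were higher in xiphoid cartilage, Myh2 and Myh7 had no count in articular cartilage, and the exception, Tnni2, made up most of the articular sum. Adipocyte markers summed to 80.23 and 93.73 against 2454 and 3078 CPM, with all 9 tested genes higher in xiphoid cartilage and Lep at 0 counts in articular cartilage. Fibroblast markers summed to 1739 and 1793 against 16300 and 17580 CPM, with 6 of 8 genes higher in xiphoid and 1 in articular cartilage. Endothelial markers differed less (111.8 and 113.6 against 132.4 and 134.4 CPM, with 2 of 6 genes higher in xiphoid and 1 in articular cartilage). Erythroid markers (5394 and 5654 against 441.1 and 446.7 CPM, 10 of 10 higher in articular cartilage) and proliferation markers (193.6 and 195.3 against 76.38 and 80.37 CPM, 9 of 10) lay on the other side. So did markers of osteoblasts (8961 and 9715 against 5981 and 6512 CPM, 6 of 7), neutrophils (190 and 193.8 against 10.57 and 12.73 CPM, 7 of 8 tested, with 5 at 0 counts in xiphoid cartilage) and macrophages or osteoclasts (1376 and 1404 against 178.9 and 180.8 CPM, 4 of 6). The osteoblast sums hide larger differences of single genes, whose median log2 fold change (articular over xiphoid) was 6.93. Of these genes, 1 had no count in xiphoid cartilage, and the gene not called higher was at -0.12. The part of these cells in the results below was not tested, and in bulk tissue fewer cells of a type and less RNA per cell cannot be told apart.

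Transcripts of the mitochondrial ribosome were detected for every one of the 71 genes in every library, with 32 to 1687 counts per gene and library, and all 71 passed the filter on low counts. Their summed share of the counts was 0.249% and 0.223% in articular cartilage and 0.307% and 0.287% in xiphoid cartilage, so that both xiphoid sums lay above both articular sums. Differences between the tissues were small and leaned to one side. With a threshold of 0.05 on p from edgeR's quasi-likelihood test, adjusted after Benjamini-Hochberg over all 11197 genes tested, 22 of the 71 genes were higher in xiphoid cartilage, 0 in articular cartilage, while 49 missed the threshold. The 22 are 31% of the 71, while of all genes tested 24.5% were higher in xiphoid and 25% in articular cartilage. The share on the xiphoid side was thus close to that of all genes, and the articular side was the one that held fewer genes than the background. No gene of the 71 was higher in articular cartilage at an unadjusted p under 0.05 either (0 against 29 on the xiphoid side), and DESeq2 and limma-voom also gave 0. The number on the xiphoid side depended on the libraries. It was 6 without xiphoid replicate 1, 14 without xiphoid replicate 2, 17 without articular replicate 2 and 31 without articular replicate 1. Of all genes tested in those fits, 37.9%, 38.2%, 46.2% and 52.5% were called in either direction, against 49.5% with all libraries. Mrps35 alone was called higher in articular cartilage without articular replicate 1.

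**Figure D1:**
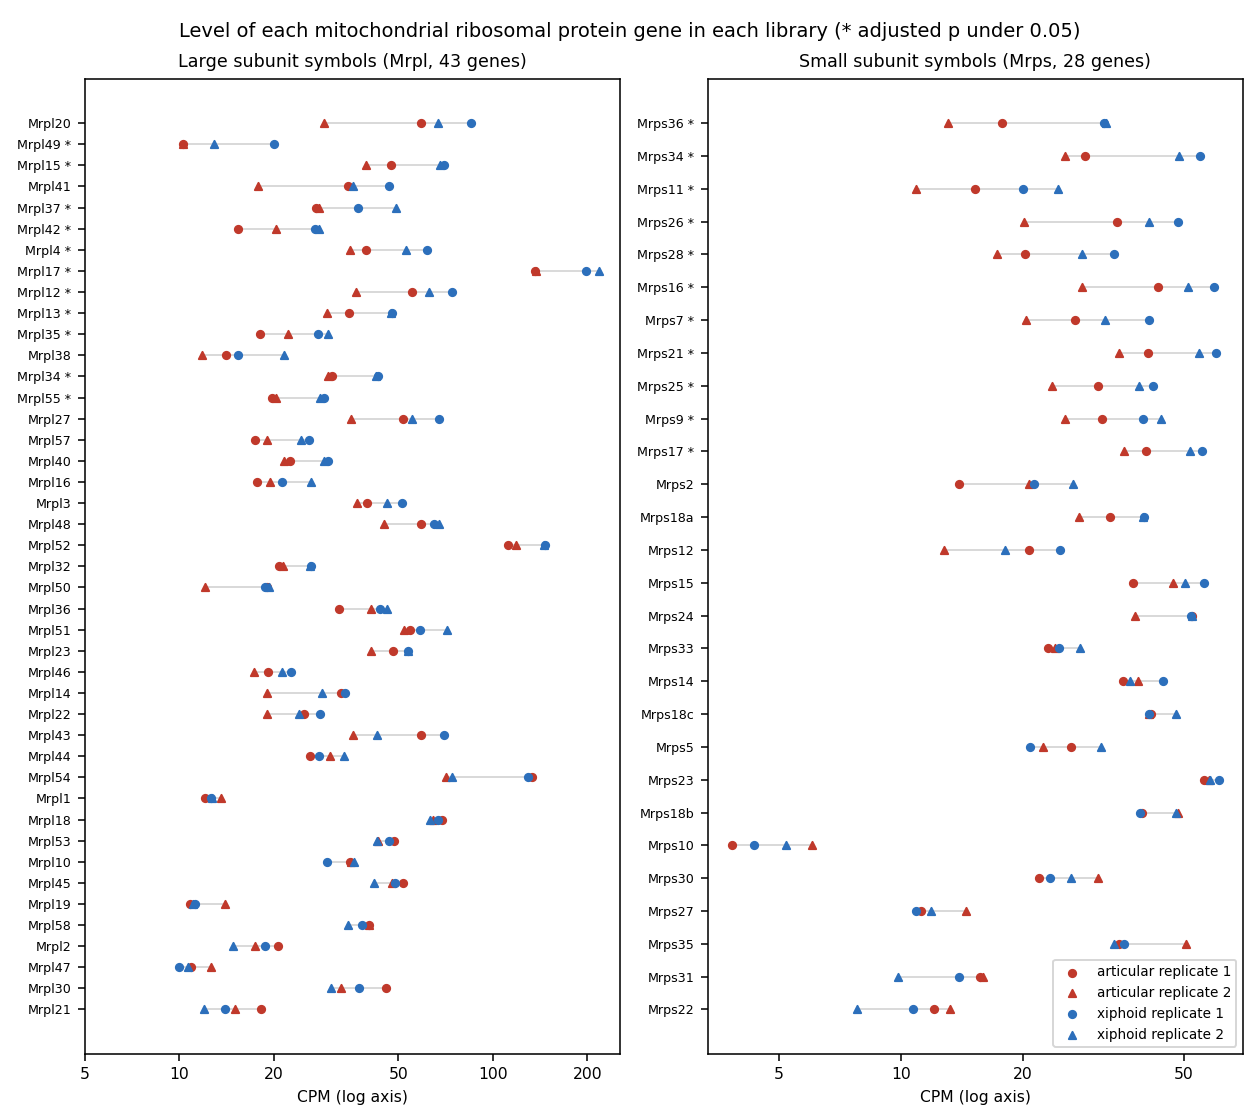
CPM of each gene in each of the 4 libraries on a log axis, in order of the fitted change within the large subunit symbols (left) and small subunit symbols (right), with red for articular and blue for xiphoid libraries, and circles for replicate 1 and triangles for replicate 2. In 42 of the 71 genes both xiphoid libraries lie above both articular libraries; rows are not corrected for transcript length and cannot be compared with each other.

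Both xiphoid libraries lay above both articular libraries for 42 of the 71 genes (59.2%), against 37.8% of all genes tested. The reverse held for 5 of the 71 (7.04%), against 37.2% of all genes tested. The median log2 fold change, articular over xiphoid, was -0.33 for the 71 genes and -0.02 for all genes tested, and 52 of the 71 values were below 0 (73.2%, against 50.7% of all genes). The sizes stayed narrow. The fitted log2 fold changes ran from -1.04 to 0.44, and their median absolute value was 0.35 against 0.57 for all genes. A fitted fold above 2 was reached by 1 of the 71 genes (1.41%), while 30.7% of all genes tested passed it. The median standard error of the 71 values was 0.19, so a gene that did not pass is not shown to be equal in both tissues.

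**Figure D2:**
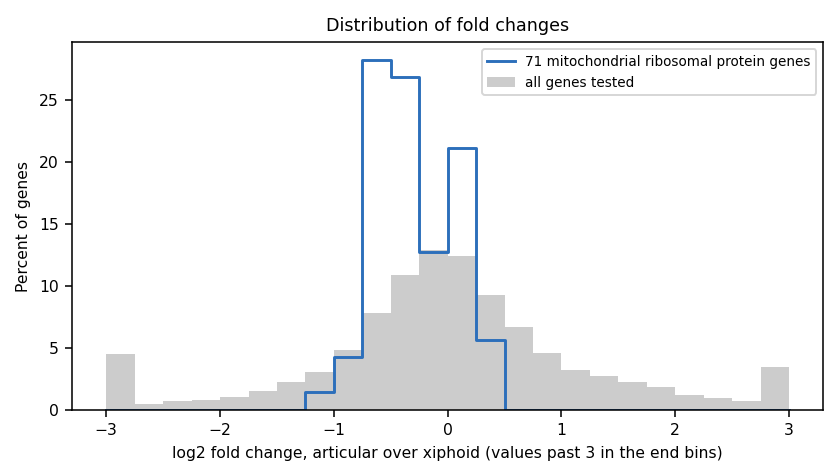
Percent of genes in bins of 0.25 of the log2 fold change (articular over xiphoid), for all 11197 genes tested (grey bars) and the 71 mitochondrial ribosomal protein genes (blue line), with values past 3 placed in the end bins. The blue line spans -1.04 to 0.44 and has most of its genes below 0.

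The small subunit binds the messenger RNA and reads its codons. Mrps34, a protein without a bacterial counterpart that is needed for a stable small subunit, had the lowest adjusted p of the 71 genes. It stood at 28.6 and 25.4 CPM in the articular and 54.9 and 48.6 CPM in the xiphoid libraries, a fold of 1.92 (log2 fold change -0.94 with an SE of 0.17, adjusted p = 0.000664). Its libraries did not overlap, and the call held in all 13 alternative analyses. Mrps36 stood at 17.8 and 13.1 CPM in articular and 31.7 and 32.2 CPM in xiphoid cartilage, the one fold above 2 (2.06, log2 fold change -1.04 with an SE of 0.21, adjusted p = 0.00119), and also held in all 13. Mrps36 carries the name of a ribosomal protein, but RefSeq now lists it as Kgd4, and its product is known as a subunit of the 2-oxoglutarate dehydrogenase complex of the citric acid cycle and is not seen in structures of the mammalian mitochondrial ribosome.

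Several small subunit proteins of bacterial descent were also higher in xiphoid cartilage. Mrps11, which belongs to the platform of the subunit, stood at 15.3 and 10.9 CPM in articular and 20.1 and 24.5 CPM in xiphoid cartilage (log2 fold change -0.76 with an SE of 0.23, adjusted p = 0.0162). Mrps28, the counterpart of the bacterial protein S1, stood at 20.3 and 17.3 against 33.6 and 28.1 CPM (-0.71, SE 0.20, adjusted p = 0.0097). Mrps16 stood at 43.2 and 28 against 59.6 and 51.3 CPM (-0.64, SE 0.21, adjusted p = 0.0215). In each of these 3 genes the lower xiphoid library was above the higher articular library. Mrps21 stood at 40.8 and 34.7 against 60 and 54.6 CPM (-0.60, SE 0.17, adjusted p = 0.00942), and since RefSeq lists a gene named Mrps21l, its reads may be shared with a copy. Mrps26, a protein specific to mitochondria, stood at 34.2 and 20.2 against 48.4 and 41.1 CPM (-0.72, SE 0.23, adjusted p = 0.0211), with a wide gap between its articular libraries. Single libraries decided several of these calls. Without xiphoid replicate 1 the adjusted p was 0.104 for Mrps21, 0.129 for Mrps28, 0.086 for Mrps26 and 0.115 for Mrps16. Without articular replicate 2 it was 0.0577 for Mrps11, 0.0949 for Mrps26 and 0.105 for Mrps16, and the log2 fold change of Mrps26 and Mrps16 was then -0.39 and -0.36. Without articular replicate 1 that of these 2 genes was -1.15 and -0.99, and without xiphoid replicate 2 the adjusted p of Mrps11 was 0.123.

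Of the 15 small subunit proteins of bacterial descent that were matched, 7 passed on the xiphoid side and 8 did not pass, with a median log2 fold change of -0.47. The other called genes among them were Mrps7, Mrps9 and Mrps17. Of the 10 small subunit proteins specific to mitochondria that carry an Mrps symbol, 3 (Mrps34, Mrps26 and Mrps25) passed, all on the xiphoid side. The other 7 did not, and the 10 had a median of -0.02 and a range from -0.94 to 0.44. Of all genes tested, 24.5% were higher in xiphoid cartilage, and the difference between these groups was not tested. Both groups leave out ribosome proteins with other symbols, such as Dap3 of the small subunit, which are given below. All 5 of those had fitted values below 0 (median -0.41), so the medians here depend on how the genes are named. The 2 genes with the highest fitted values of all 71 belong to the second group. Mrps22 stood at 12.1 and 13.2 CPM in articular and 10.7 and 7.8 CPM in xiphoid cartilage (log2 fold change 0.44 with an SE of 0.25, adjusted p = 0.169). Mrps31 stood at 15.7 and 16 against 13.9 and 9.86 CPM (0.41, SE 0.24, adjusted p = 0.17). Both were above the xiphoid libraries in both articular libraries, and neither passed. Their sizes rested on single libraries, at 0.70 and 0.69 without xiphoid replicate 1 and 0.25 and 0.20 without xiphoid replicate 2. Mrps35 was at 34.7 and 50.6 CPM in articular and 35.6 and 33.7 CPM in xiphoid cartilage (0.30, adjusted p = 0.233). Its value rested on 1 library, with a log2 fold change of 0.55 (adjusted p = 0.0107) without articular replicate 1 and 0.00 without articular replicate 2.

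**Figure D3:**
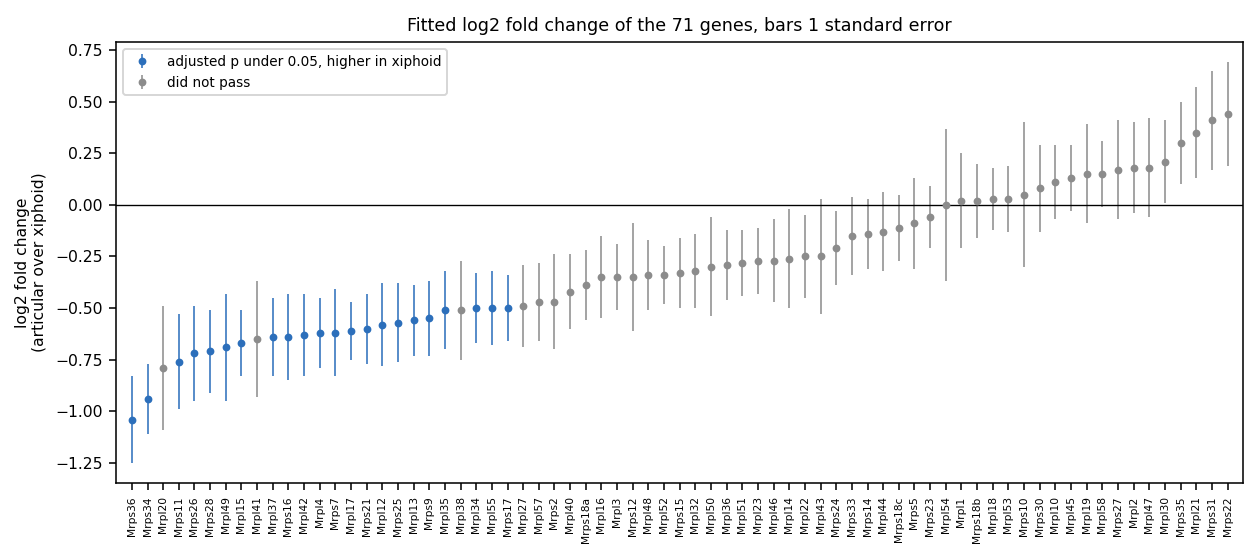
Fitted log2 fold change (articular over xiphoid) of each of the 71 genes with 1 standard error, in order of size, in blue for the 22 genes that passed the test on the xiphoid side and in grey for the 49 that did not pass. The values run from -1.04 for Mrps36 to 0.44 for Mrps22.

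The large subunit forms the peptide bonds and holds the tunnel through which the new chain leaves. Of its 43 genes by symbol, 11 were higher in the xiphoid libraries, while 32 did not pass, with a median log2 fold change of -0.32. That share was close to the 24.5% of all genes tested that were higher in xiphoid cartilage. Mrpl15 stood at 47.2 and 39.5 CPM in articular and 69.8 and 68 CPM in xiphoid cartilage, a fold of 1.59 (log2 fold change -0.67 with an SE of 0.16, adjusted p = 0.00453), and its call held in all 13 alternative analyses. Mrpl4, which reaches into the tunnel wall in bacterial ribosomes, stood at 39.5 and 35 against 61.5 and 53 CPM (-0.62, SE 0.17, adjusted p = 0.00833). Mrpl37, a protein specific to mitochondria, stood at 27.3 and 28 against 37.1 and 49 CPM (-0.64, SE 0.19, adjusted p = 0.0132). Its articular libraries lay close together and its xiphoid libraries did not. Mrpl13 stood at 34.7 and 29.5 against 47.5 and 47.4 CPM (-0.56, SE 0.17, adjusted p = 0.0147). Without xiphoid replicate 1 the adjusted p was 0.127 for Mrpl4 and 0.0958 for Mrpl13. Without xiphoid replicate 2 it was 0.093 for Mrpl13 and 0.24 for Mrpl37, whose log2 fold change was then -0.41. The bacterial and the mitochondrial part of the large subunit had the same median. Of 25 matched proteins of bacterial descent 8 were higher in xiphoid cartilage (median -0.32). Of 20 specific to mitochondria, which include the products of Mrps30 and Mrps18a, 3 were (median -0.32). Genes with lower-case or other symbols, which are given below, are in neither group.

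The remaining 10 called genes of both subunits were Mrpl42, Mrps17, Mrps9, Mrps25, Mrpl34, Mrps7, Mrpl12, Mrpl55, Mrpl49 and Mrpl35. Their folds of xiphoid over articular cartilage were 1.41 to 1.61, with adjusted p of 0.0224 to 0.0462, and none passed without xiphoid replicate 1 (0.0645 to 0.516). Of these 10, Mrpl49 had the largest shift with a library left out, with a log2 fold change of -0.69 over all libraries and -0.31 without xiphoid replicate 1. The gene with the fewest counts of all 71, Mrps10, was at 3.83 and 6.03 CPM in articular and 4.35 and 5.2 CPM in xiphoid cartilage and did not pass (0.05, SE 0.35).

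Around the exit of the tunnel, Mrpl17 stood at 136 and 137 CPM in articular and 198 and 218 CPM in xiphoid cartilage, a fold of 1.53 (log2 fold change -0.61 with an SE of 0.14, adjusted p = 0.00368). Without xiphoid replicate 2 its log2 fold change was -0.53 with an adjusted p of 0.0798. The other 4 matched proteins of the exit did not pass. Mrpl23 was at 48.2 and 40.8 against 53.5 and 53.7 CPM (-0.27, SE 0.16) and Mrpl22 at 25 and 19.1 against 28.2 and 24.1 CPM (-0.25, SE 0.20). Mrpl45, which ties the ribosome to the inner membrane, was at 51.6 and 47.6 against 48.9 and 41.7 CPM (0.13, SE 0.16), and Mrpl47 was at 10.9 and 12.6 against 9.99 and 10.7 CPM (0.18, SE 0.24). The proteins of the exit therefore had fitted values on both sides of 0.

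On the stalks of the large subunit, which recruit translation factors and move with the tRNAs, Mrpl12 was the called gene. It was at 55.1 and 36.5 CPM in articular and 74.1 and 62.7 CPM in xiphoid cartilage (log2 fold change -0.58 with an SE of 0.20, adjusted p = 0.03). Its product is also known to bind the mitochondrial RNA polymerase. The call was lost without articular replicate 2 (-0.31, adjusted p = 0.159) and without xiphoid replicate 1 (-0.44, adjusted p = 0.172), and the value was -0.91 without articular replicate 1. Its partner in the stalk, Mrpl10, was at 35.1 and 35.4 against 29.6 and 36 CPM (0.11, SE 0.18), Mrpl1 at 12.1 and 13.6 against 12.6 and 12.7 CPM (0.02, SE 0.23) and Mrpl53 at 48.5 and 43.1 against 46.8 and 42.7 CPM (0.03, SE 0.16). The libraries of the tissues overlapped in all 3. Mrpl54, also listed with the stalks, did not pass and is given below. In the central protuberance, the crown of the subunit, Mrpl55 was the one called gene of 8, a share below the 24.5% of all genes tested that were higher in xiphoid cartilage. Of the 8 fitted values 7 were below 0 (median -0.38), against 50.7% of all genes tested.

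Some genes differed more between the libraries of at least 1 tissue than between the tissues. Mrpl54 stood at 133 and 70.7 CPM in articular and at 129 and 74.2 CPM in xiphoid cartilage, high in replicate 1 and low in replicate 2 of both tissues, with a log2 fold change of 0.00 (SE 0.37). With 1 library left out its value went to either side, at -0.53 (adjusted p = 0.00988) without articular replicate 1, -0.33 (0.318) without xiphoid replicate 2, 0.39 (0.0578) without articular replicate 2 and 0.47 (0.146) without xiphoid replicate 1. Mrpl43 was at 58.9 and 35.8 against 69.9 and 42.6 CPM, with the same order of libraries (-0.25, SE 0.28, adjusted p = 0.492), and its direction was not stable. It was -0.65 (adjusted p = 0.00222) without articular replicate 1 and -0.54 (0.0754) without xiphoid replicate 2, but 0.06 (0.804) without articular replicate 2 and 0.17 (0.663) without xiphoid replicate 1. Mrpl20 was at 58.8 and 29 against 85 and 66.7 CPM (-0.79, SE 0.30, adjusted p = 0.0554) and Mrpl41 at 34.6 and 17.8 against 46.8 and 35.7 CPM (-0.65, SE 0.28, adjusted p = 0.0765). These 2 had among the most negative fitted values of the 71 genes and did not pass. Without articular replicate 1 they were -1.39 (adjusted p = 6.38e-11) and -1.21 (adjusted p = 2.96e-07), and without xiphoid replicate 2 they were -0.93 (adjusted p = 0.000976) and -0.82 (adjusted p = 0.00969). With articular replicate 2 left out they were -0.37 (adjusted p = 0.0911) and -0.26 (0.292), and with xiphoid replicate 1 left out -0.59 (0.0582) and -0.43 (0.233). These 4 genes were grouped here after their values were seen, although Mrpl54 was to be named in any case as a gene of the stalk list. Mrpl43 overlaps Twnk, the gene of the mitochondrial DNA helicase, in RefSeq, and the counts cannot separate reads of overlapping genes.

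**Figure D4:**
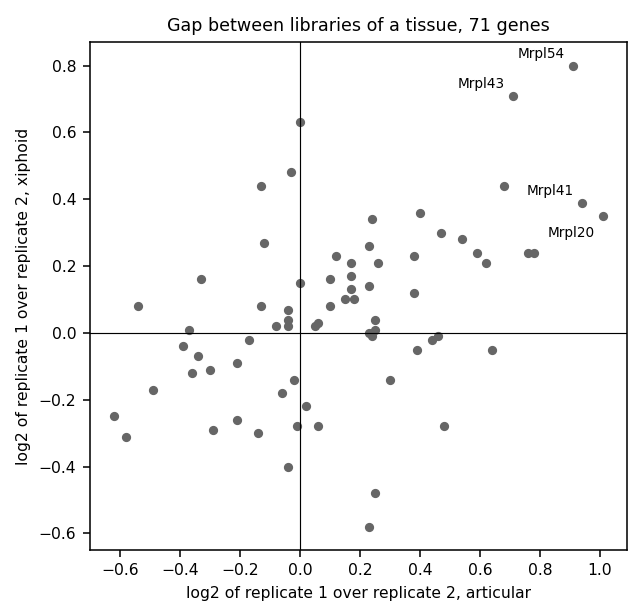
Log2 ratio of replicate 1 over replicate 2 in articular (x axis) and in xiphoid cartilage (y axis), with 1 point for each of the 71 genes. Mrpl54 (0.91 and 0.80) and Mrpl43 (0.71 and 0.71) lie far to the upper right, and Mrpl20 and Mrpl41 have their larger gap in articular cartilage.

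Bacteria have 1 gene for ribosomal protein S18, and mammals have 3 mitochondrial relatives of it. Mrps18a, whose product sits in the large subunit, was at 32.9 and 27.6 CPM in articular and 39.9 and 39.6 CPM in xiphoid cartilage (log2 fold change -0.39 with an SE of 0.17, adjusted p = 0.0792), and was -0.53 (0.0243) without articular replicate 1 and -0.27 (0.267) without articular replicate 2. Mrps18b was at 39.5 and 48.4 against 39 and 47.8 CPM (0.02, SE 0.18) and Mrps18c at 41.6 and 41.1 against 41.1 and 48 CPM (-0.11, SE 0.16). The libraries of Mrps18a did not overlap between tissues and those of the other two did.

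The table held 3 more genes of the large subunit under lower-case symbols, which the choice of genes left out. mrpl24, a protein of the tunnel exit, stood at 19 and 15.8 CPM in articular and 31.4 and 33.3 CPM in xiphoid cartilage (log2 fold change -0.89, adjusted p = 0.00218). mrpl9 (0.32, adjusted p = 0.0883) and mrpl11 of the stalk base (-0.44, adjusted p = 0.123) did not pass. Of 5 ribosome proteins with other symbols, 2 were higher in xiphoid cartilage. Ptcd3 was at 22.8 and 18.9 against 33.6 and 29.3 CPM (-0.59, adjusted p = 0.0227). Gadd45gip1 was at 52 and 45.7 against 67.3 and 70.1 CPM (-0.49, adjusted p = 0.0204). Neither call held with 1 library less in all cases, and their adjusted p were 0.201 and 0.101 without xiphoid replicate 1, 0.0698 and 0.0657 with articular replicate 2 left out, and 0.0504 and 0.154 with xiphoid replicate 2 left out. Dap3, a GTP-binding protein of the small subunit, was at 29.6 and 31.1 against 41.6 and 39.3 CPM (-0.41, SE 0.17, adjusted p = 0.0572) and Aurkaip1 at 43.3 and 41.9 against 54.4 and 51.2 CPM (-0.31, SE 0.16, adjusted p = 0.12). Neither these nor Chchd1 (-0.17) passed, although the tissues did not overlap in Dap3 and Aurkaip1.

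The other genes that serve mitochondrial translation were spread over both sides. Of 89 listed genes, which include the 5 with other symbols, 81 were matched and 79 tested, of which 9 passed on the articular side, 7 passed on the xiphoid side and 63 did not pass, with a median log2 fold change of -0.08. Both shares were below those of all genes tested (25% and 24.5%). Without xiphoid replicate 1 the counts were 4 and 3, and the xiphoid count was 12 without articular replicate 1 and 4 without articular replicate 2.

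Among the translation factors, 1 of 14 tested genes was called on each side. Guf1, a mitochondrial relative of the bacterial elongation factor LepA, stood at 20.2 and 31.5 CPM in articular and 9.52 and 11.4 CPM in xiphoid cartilage (log2 fold change 1.31 with an SE of 0.25, adjusted p = 0.00101). Tufm, the factor that brings charged tRNA to the ribosome, stood at 41.5 and 36.6 against 51.1 and 60.4 CPM (-0.51, SE 0.17, adjusted p = 0.0235), and its adjusted p was 0.0554 without articular replicate 2 and 0.265 without xiphoid replicate 2. The next in this list did not pass. Mtif2, an initiation factor, was at 10.2 and 12.5 against 7.52 and 6.98 CPM (0.64, SE 0.26, adjusted p = 0.0609), and Mtres1, deposited as LOC683897, at 9.56 and 8.86 against 14.8 and 13.1 CPM (-0.60, SE 0.24, adjusted p = 0.0517). Mtif2 was 0.78 (adjusted p = 0.0392) without articular replicate 1 and 0.49 (0.254) without articular replicate 2.

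Of 22 tested assembly genes 2 were called on each side. Malsu1, which guards the immature large subunit, was at 23.8 and 19.6 against 36.5 and 42.6 CPM (-0.86, SE 0.19, adjusted p = 0.00239). Ngrn, which acts on the large ribosomal RNA, was at 58.1 and 52.8 against 89.1 and 80.6 CPM (-0.61, SE 0.15, adjusted p = 0.00567). Gtpbp10, a GTPase of large subunit assembly, was at 18.3 and 18 against 10.2 and 11.6 CPM (0.73, SE 0.22, adjusted p = 0.0144), and Tfb1m, which methylates the small ribosomal RNA, at 35.6 and 39.4 against 23.9 and 25.7 CPM (0.60, SE 0.18, adjusted p = 0.0139). The called assembly genes thus lay on both sides, although the called ribosomal proteins all lay on the xiphoid side. Both shares of called assembly genes were below those of all genes tested (25% articular and 24.5% xiphoid). Of the 22 fitted values, 15 were below 0 and 7 above, with a median of -0.16. Without xiphoid replicate 1 the adjusted p of Ngrn, Gtpbp10 and Tfb1m was 0.0823, 0.119 and 0.122, and that of Tfb1m was 0.0558 without xiphoid replicate 2.

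Of 17 tested genes that charge mitochondrial tRNAs, 2 were called on each side. Fars2, which charges phenylalanine, was at 12.2 and 10.3 CPM in articular and 26 and 25.3 CPM in xiphoid cartilage (log2 fold change -1.19 with an SE of 0.21, adjusted p = 0.000499). Gatc, a part of the enzyme that makes glutaminyl-tRNA, was at 21.3 and 23.6 against 36 and 35.2 CPM (-0.66, SE 0.18, adjusted p = 0.00843, and 0.0655 without xiphoid replicate 1). Sars2, for serine, was at 8.37 and 7.32 against 4.93 and 3.97 CPM (0.81, SE 0.31, adjusted p = 0.0433) and Wars2, for tryptophan, at 8.61 and 7.96 against 4.7 and 5.06 CPM (0.76, SE 0.29, adjusted p = 0.0452). Neither of these calls on the articular side held with any 1 library left out (adjusted p of 0.0529 to 0.199). Of 13 tested genes for mitochondrial DNA and RNA, 1 was called. Lrpprc, which stabilizes mitochondrial messenger RNA, was at 45.4 and 54.7 against 30.7 and 26.6 CPM (0.80, SE 0.18, adjusted p = 0.00246). Pnpt1, which degrades mitochondrial RNA, was at 12.3 and 21.1 against 8.58 and 11.5 CPM (0.73, SE 0.29, adjusted p = 0.0506) and Tfb2m, a transcription factor of mitochondria, at 19.7 and 29 against 12 and 19.2 CPM (0.65, SE 0.26, adjusted p = 0.0572). Polg2, a subunit of the mitochondrial DNA polymerase, was at 7.17 and 6.68 against 13.7 and 8.76 CPM (-0.71, SE 0.29, adjusted p = 0.0609). None of these 3 passed with all libraries, and their values rested on single libraries. Pnpt1 was 1.08 (adjusted p = 0.000256) without articular replicate 1 and 0.96 (0.0183) without xiphoid replicate 2, but 0.30 (0.442) without articular replicate 2 and 0.54 (0.21) without xiphoid replicate 1. Tfb2m was 0.91 (0.000336) and 1.03 (0.00632) in the first 2 of these fits and 0.35 (0.244) and 0.35 (0.398) in the other 2. Polg2 ranged from -0.97 (0.0206), with xiphoid replicate 2 left out, to -0.33 (0.55), with xiphoid replicate 1 left out. In this list 10 of 13 fitted values were above 0 (median 0.21), and Tfam, which packs mitochondrial DNA, did not pass (0.09, SE 0.16).

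**Figure D5:**
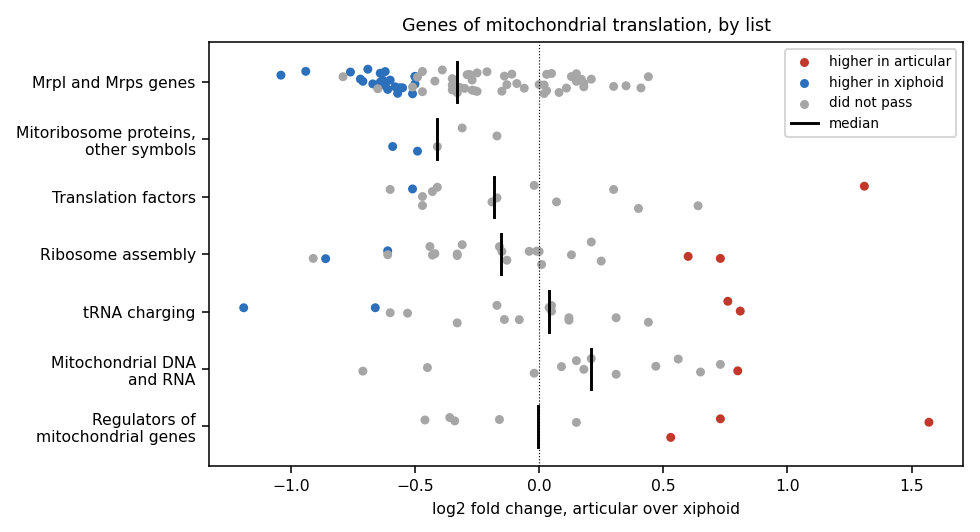
Log2 fold change (articular over xiphoid) of each tested gene of the mitochondrial ribosome and of 6 lists of related genes, in red and blue for genes called higher in articular and xiphoid cartilage, in grey for those that did not pass, with the list's median as a black bar and points spread vertically for legibility. The Mrpl and Mrps genes have blue and grey points only (median -0.33), and each related list but the one with other symbols has at least 1 red point.

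Transcription of many nuclear genes for mitochondrial proteins is driven by the factors NRF1 and GABP, the latter an ETS factor made of an alpha and a beta chain. All 3 genes were called on the articular side, where 25% of all genes tested were called. They come from a list of 8 tested regulators, of which 4 had fitted values above 0 and 4 below, with a median of -0.01. Gabpa stood at 41.4 and 59.1 CPM in articular and 19.4 and 14.4 CPM in xiphoid cartilage (log2 fold change 1.57 with an SE of 0.22, adjusted p = 0.000107). Nrf1 stood at 38.6 and 35.7 against 23 and 21.8 CPM (0.73, SE 0.18, adjusted p = 0.00465). Both calls held with each library left out, although the value of Gabpa varied from 1.29 to 1.81. Gabpb1 was at 30 and 35.6 against 19.9 and 25.7 CPM (0.53, SE 0.20, adjusted p = 0.044) and did not pass without articular replicate 2 (0.119) or without xiphoid replicate 1 (0.355). The other 5 tested regulators did not pass. Among them Pprc1, a coactivator, was at 19.8 and 19.1 against 28.3 and 25.5 CPM (-0.46, SE 0.19, adjusted p = 0.0577), and the coactivators Ppargc1a and Ppargc1b had too few counts to be tested.

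Promoters were read for the motifs of these factors over the 250 bases before the RefSeq start on assembly GRCr8. The sequence table held 57 of the 71 genes. The letters searched on both strands were GCATGCGC for NRF1, CCGGAAG for ETS factors and AAGATGGCG for YY1, a further regulator of mitochondrial genes. Neighbouring NRF1 matches can overlap, since the motif is nearly its own reverse. The NRF1 letters were in 5 of the 57 promoters (8.77%), against 4.05% of the 10961 promoters of genes in the table and 2.38% of all 27457 promoters. The ETS letters were in 12 (21.1%, against 13.7% and 7.74%) and the YY1 letters in 1 (1.75%, against 1.1% and 0.736%). Of 17 promoters of genes higher in xiphoid cartilage, 0 held the ETS letters and 1 the NRF1 letters, and of 40 promoters of genes that did not pass, 12 and 4 held them. The median log2 fold change was -0.28 for the 12 genes with the ETS letters, with a range from -0.49 to 0.41, and -0.33 for the 45 without them. A match of letters is a description of the sequence and not a binding site. Whether these factors or motifs bear on the levels of the 71 genes in either tissue was not tested.

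The sequences of 3 promoters are printed from 5′ to 3′, each the gene with the lowest adjusted p among those with that motif, with the matches in capitals. Mrpl17 (chr1:169575700-169575949, minus strand) has NRF1 letters between 55 and 46 bases and between 17 and 10 bases before the start, and is the one gene with any of the 3 motifs among the 17 of 22 genes higher in xiphoid cartilage whose promoter was read. Mrps34, Mrpl15, Mrpl13, Mrps28 and Mrpl35 were not read. Mrpl27 (chr10:80092095-80092344, plus strand) has ETS letters 61 to 55 bases before the start. Mrpl36 (chr1:31795122-31795371, minus strand) has ETS letters at 75 to 69 and YY1 letters at 17 to 9 bases. Mrpl27 was at 51.8 and 35.4 CPM in articular and 67.3 and 55.4 CPM in xiphoid cartilage (log2 fold change -0.49, adjusted p = 0.0555), which became -0.79 (0.000185) without articular replicate 1 and -0.61 (0.0441) without xiphoid replicate 2, but -0.25 (0.281) without articular replicate 2 and -0.33 (0.331) without xiphoid replicate 1. Mrpl36 was at 32.4 and 41 against 43.8 and 46.1 CPM (-0.29, adjusted p = 0.181), which became -0.47 (0.0403) without articular replicate 2 and -0.13 (0.583) without articular replicate 1.
Mrpl17: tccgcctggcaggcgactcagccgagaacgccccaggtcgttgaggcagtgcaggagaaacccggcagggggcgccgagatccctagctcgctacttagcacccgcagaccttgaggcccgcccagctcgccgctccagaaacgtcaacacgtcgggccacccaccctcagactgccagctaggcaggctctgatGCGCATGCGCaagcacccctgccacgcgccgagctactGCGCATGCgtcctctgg
Mrpl27: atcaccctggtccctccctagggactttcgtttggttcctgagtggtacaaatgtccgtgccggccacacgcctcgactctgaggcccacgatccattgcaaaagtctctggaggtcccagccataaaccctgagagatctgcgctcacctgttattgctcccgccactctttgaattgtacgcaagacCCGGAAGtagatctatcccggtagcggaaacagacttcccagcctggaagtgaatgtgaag
Mrpl36: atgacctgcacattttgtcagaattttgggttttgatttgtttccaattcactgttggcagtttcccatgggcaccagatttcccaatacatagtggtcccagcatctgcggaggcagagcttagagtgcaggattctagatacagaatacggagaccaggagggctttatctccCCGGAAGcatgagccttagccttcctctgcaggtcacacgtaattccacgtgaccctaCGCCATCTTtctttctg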

How the data were processed

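The authors deposited 1 table of expected counts per gene and library, that is, estimated read numbers not normalized, as read from the file headers and from the values, of which 3.91% were not whole (none of them in the 71 genes). The submitters' processing notes name RSEM 1.2.12, Bowtie2 2.2.6, StringTie 1.2.1, HISAT2 2.0.4 and build rn6; the order of these tools and their use of strand are not given in the sources used here. Of the 71 genes, 21 also carried transcripts assembled by the submitters, and 11 overlap another gene of the table in RefSeq (GRCr8, used for names and neighbours), among them Mrpl37, Mrpl49 and Mrpl55. The files give no transcript lengths, so levels are not compared between genes.

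Counts were rounded, 8 rows without a gene name (0.00674% to 0.00857% of counts) were left out, and filterByExpr left 11197 genes. Libraries were scaled by TMM and tested with edgeR 4.0.16 (robust glmQLFit, glmQLFTest; R 4.3.3). Tissue was the only term, with 2 residual and a median of 10 prior degrees of freedom, a biological coefficient of variation of 14.1% and 2-sided p-values. The standard error is the log2 fold change divided by the square root of F. The procedure was tested on simulated data. Alternatives were DESeq2 1.42.0, limma-voom (limma 3.58.1), glmTreat with a minimum fold of 1.2, a replicate block, RLE or upper-quartile factors, library sizes alone, no filter or one on mean CPM (5 or more), and leaving out each library.

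The genes, lists and tests were chosen with earlier results of these data known. Values are given for the 12 genes with the lowest adjusted p on each side (all of them xiphoid), genes with a fold above 2, the stalk, exit and S18 genes, and up to 4 genes of each related list; Mrps22, Mrps31, Mrps35, Mrpl20, Mrpl27, Mrpl36, Mrpl41, Mrpl43, Mrps10 and Tfam were named after their values were seen. A planned comparison of the S18 proteins was not run because no protein table was used here.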

Additional observations from a re-analysis of the deposited data

How the results depend on the processing

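The median log2 fold change of the 71 genes stayed below 0 in all 13 alternatives (-0.40 to -0.26), and 3 of the 22 calls, Mrps34, Mrps36 and Mrpl15, held in every one. RLE and upper-quartile factors, library sizes alone, both other filters and limma-voom gave 19 to 23 genes higher in xiphoid cartilage. DESeq2, which called 37.7% of all genes, gave 14 (with 5 of the related genes higher in articular and 4 in xiphoid cartilage). glmTreat, which called 42.1%, gave 11, with 4 of the related genes higher in xiphoid cartilage. Related genes also passed glmTreat on the articular side, among them Gabpa, Nrf1, Lrpprc, Guf1, Tfb1m and Gtpbp10. With 1 library left out, where the lone library of a tissue is assumed to vary like the others, 6 to 31 of the 71 were higher in xiphoid and 0 to 1 in articular cartilage, and of the related genes 3 to 12 and 4 to 10. Mrpl54, at 0.00 over all libraries, and thus with no direction, was between -0.53 and 0.47 with 1 library left out. The cause of these shifts was not tested.

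The replicate block gave 35 of the 71 and 19 of the related genes higher in xiphoid cartilage. Related genes also passed on the articular side with the block, among them Gabpa, Nrf1, Gabpb1, Lrpprc, Pnpt1, Tfb2m, Guf1, Mtif2, Sars2, Wars2, Tfb1m and Gtpbp10. The share of all genes called in either direction also rose, from 49.5% to 61%. Deviations of libraries with the same number correlated at 0.48 across the 71 genes and 0.24 across all genes, which are not independent replicates; with 2 numbers and no statement in the labels, they are not taken to pair the libraries. With 2 libraries per tissue, small differences such as most of those here are at the limit of what the test can call.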
